A study of Saccharomyces cerevisiae with 7 samples.

Results

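The change in messenger RNA levels between 6 h and 8 h was described for budding yeast (Saccharomyces cerevisiae) in late sporulation. For each gene it was taken as the log2 value at 8 h minus the log2 value at 6 h, so the division by the 0 h level cancelled. Genes differing by 1 or more on the log2 scale either way, that is by at least 2-fold, were kept. They were 97 of the 5666 genes with values. Of these, 94 (1.66% of all genes) were higher at 8 h and 3 (0.0529%) were lower, together 1.71%.

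The cultures were sampled at 0, 1, 2, 3, 4, 5, 6 and 8 h of meiosis, and poly(A)+ RNA of each time point was competed on 2-colour arrays against a common mix of meiotic messenger RNA. The design names 3 independent cultures, and the deposited table holds 1 column of log2 ratios to 0 h for each time point. No difference below therefore has a replicate error or a p-value, and "higher" and "lower" describe these columns only. The 2 groups compared, 6 h and 8 h, differ by label in time alone. Strain, genotype and sporulation medium were not given in the sources used here. In such bulk samples, fewer cells of a type and less RNA per cell cannot be told apart.

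Sporulation ends with the wrapping of each haploid nucleus in a spore wall. The inner layers of mannan and beta-glucan resemble the wall of a growing cell. The outer layers, of chitosan and of cross-linked dityrosine, are found only on spores and protect them. Early genes of recombination are switched on first, middle genes of the divisions and spore formation follow under the transcription factor Ndt80, and mid-late and late genes of wall maturation come last.

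Marker genes fitted sporulating cells at both time points, but they do not tell which column is 6 h and which is 8 h. All 8 measured markers of sporulating diploid cells stood far above 0 h, between 4.09 and 10.85 at 6 h and between 3.77 and 11.75 at 8 h. The 4 measured markers of dividing vegetative cells stood between -0.63 and 0.32 at 6 h and between -0.66 and 0.00 at 8 h. Among 6 measured markers of haploid or mating cells, only STE3 (4.52 at 6 h, 4.39 at 8 h) and AGA2 (3.05 and 2.43) were 1 or more above 0 h, and none of the 6 differed by 1 or more between the 2 hours. These 6 do not speak for all such genes. In a wider list of 16, STE4 (3.91 and 3.72), STE5 (2.87 and 2.72) and STE18 (2.22 and 2.55) were also high. The medians of that list were 0.505 at 6 h and 0.63 at 8 h. The columns were alike in centre and width, with medians of -0.03 and -0.04 and SDs over genes of 1.50 and 1.51. Most genes differed little. The median change was -0.01, the SD was 0.367, and the 1st and 99th percentiles were -0.66 and 1.14.

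The largest gains were led by an uncharacterised gene and by the first gene of dityrosine synthesis, both of which climbed late. Not all large gains were of this kind. GID10 (2.03) and the stress gene DDR2 (2.00) had already stood at 2.33 and 1.39 at 1 h. YDL218W had log2 ratios to 0 h of 0.33, 0.33, 0.43, 0.46, 0.39, 2.74 and 6.52 at 1, 2, 3, 4, 5, 6 and 8 h. It was level with its early values at 5 h and stood out from them at 6 h and again at 8 h. Its change from 6 h to 8 h was 3.78, or 13.7-fold, the largest of all 5666 genes.

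DIT1 encodes the enzyme that starts the making of the dityrosine precursor. Its log2 ratios were 0.05, 0.58, 0.47, 0.88, 1.27, 4.09 and 7.73 over the same hours, so most of its level was gained after 5 h. The difference between 6 h and 8 h was 3.64, or 12.5-fold. DIT2 encodes the cytochrome P450 that joins the tyrosine units, and it lies beside DIT1 and is read in the opposite direction. Its log2 ratios were -0.17, -0.17, 0.06, 1.78, 4.40, 5.40 and 6.89. DIT2 was thus already high at 5 h, when DIT1 was at 1.27, and gained less from 6 h to 8 h (1.49). The unannotated reading frame YDR401W, numbered next to DIT2, followed DIT2 rather than DIT1 at 5 h (3.43) and differed by 1.64 over the last step.

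A second pair of neighbours read in opposite directions showed a like offset. GAT3, which encodes a GATA-type zinc finger protein needed for normal spore walls, stood at 0.20, 0.16, 2.46, 3.07, 5.48, 6.09 and 7.57. The uncharacterised YLR012C beside it stood at 0.25, 0.54, 0.85, 0.44, 1.36, 3.10 and 5.64. YLR012C was the later of the pair, at 1.36 where GAT3 was at 5.48, and its change from 6 h to 8 h was 2.54 against 1.48.

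SPS100 encodes a late protein of spore wall maturation. It had log2 ratios of 0.75, 1.10, 1.13, 1.01, 0.72, 0.79 and 2.62. No value before 8 h exceeded 1.13, so its gain of 1.83 came in the last step. GID10 encodes a substrate receptor of the GID ubiquitin ligase, which marks metabolic enzymes for breakdown. It was high at the start, lowest at 5 h and high again, at 2.33, 1.77, 1.08, 0.72, 0.50, 1.88 and 3.91. Other GID genes did not share its gain over the last step. VID30, VID24, GID7, GID8, RMD5 and FYV10 had changes from 6 h to 8 h of -0.17, -0.09, -0.02, 0.02, -0.12 and -0.62.

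**Figure D1:**
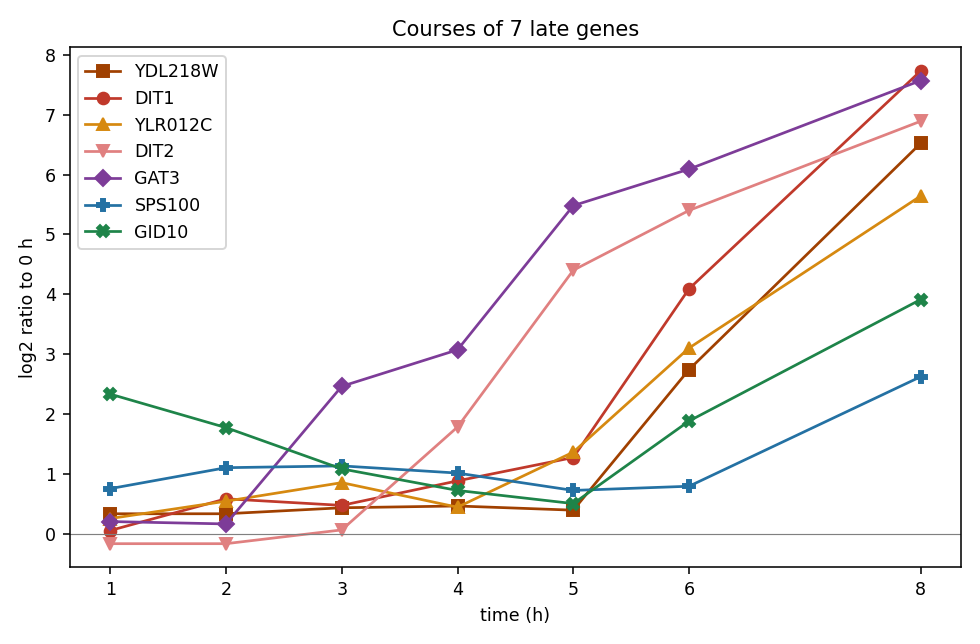
Log2 ratio to 0 h (y axis) at each sampled hour (x axis) for YDL218W, DIT1, YLR012C, DIT2, GAT3, SPS100 and GID10, 1 deposited value per point. DIT2 and GAT3 are at 4.40 and 5.48 at 5 h, while their neighbours DIT1 and YLR012C are at 1.27 and 1.36 and climb later.

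Sorted by what they encode, the 94 genes higher at 8 h were put into role groups by hand, with their values known, and the groups serve as a description. Of the 94, 23 were already 1 or more above 0 h at 5 h, 54 were 1 or more below it, and 17 lay between. The shares of all genes at those 5 h levels were 17.6% and 15.4%. Genes that were low therefore outnumbered genes that were high among those gaining. The 23 had median log2 ratios of 3.51, 4.30 and 5.83 at 5, 6 and 8 h. For the 54 the medians at 1, 3, 5, 6 and 8 h were -2.06, -1.08, -2.01, -1.55 and -0.415, and 18 of them ended above 0 h. At 8 h, 37 of the 94 stood 1 or more above 0 h and 11 still stood 1 or more below it. The choice of genes used the 8 h column. Counts of members by their 8 h level, here and below, are therefore description only.

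The direction seen from 6 h to 8 h was mostly present from 5 h to 6 h as well. In 89 of the 94 the 6 h value was above the 5 h value (50.3% of all genes), with a median difference of 0.65. The 2 differences share the 6 h column, and an error in it would enter them with opposite signs. The choice of genes used that column, so the counts from 5 h to 6 h are description only. In 8 of the 94 the step from 5 h to 6 h was itself 1 or more, and these 8 stand against 9 such genes (0.159%) in the whole table. Counted from 5 h, 92 of the 94 were at least 2-fold higher at 8 h (4.71% of all genes, with 0.406% lower). That difference contains the one the genes were chosen on, so nothing is read from it.

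The columns before 6 h played no part in the choice of the 94 genes. From 1 h to 3 h, 32 of them (34.0%) were higher by 1 or more and 20 (21.3%) lower, against 8.38% and 3.74% of all genes. Between 3 h and 5 h the counts were 21 (22.3%) and 25 (26.6%), against 11.1% and 5.38%. Over the whole table the steps differed in size. From 1 h to 2 h 4.77% of genes were 2-fold higher and 1.15% lower, from 2 h to 3 h 0.6% and 0.388%, from 3 h to 4 h 1.94% and 0.176%, and from 4 h to 5 h 9.35% and 1.38%. The step from 5 h to 6 h had 0 genes (0.0%) lower. The last step spans 2 h and each earlier one 1 h, so their counts are not for equal times.

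**Figure D2:**
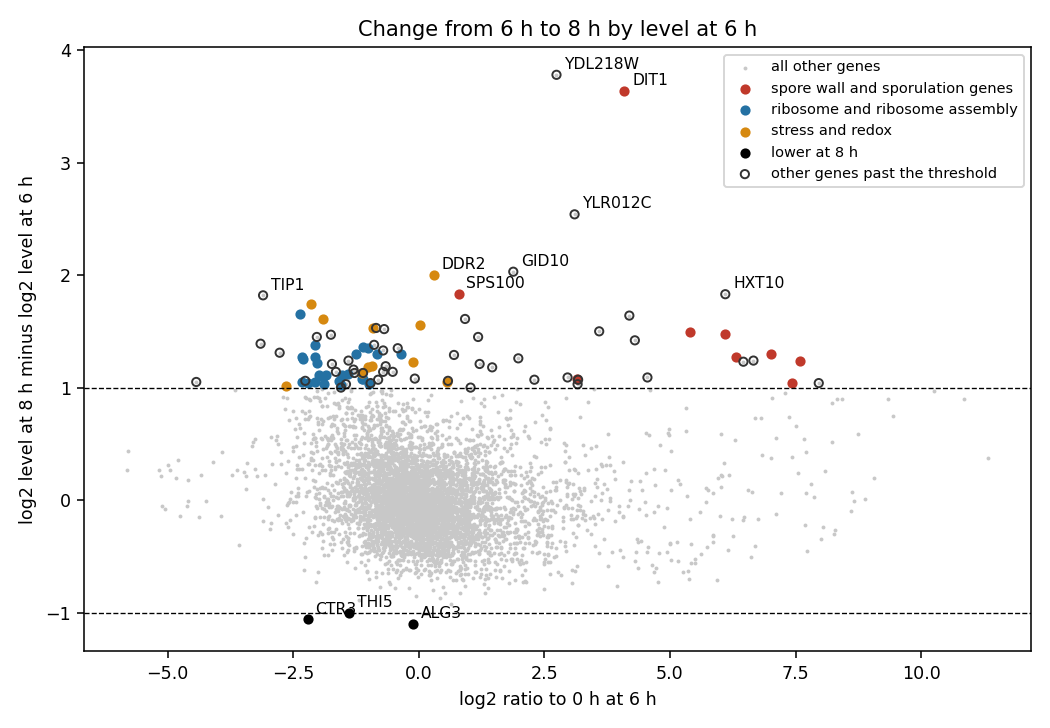
Change in log2 level from 6 h to 8 h (y axis) against the log2 ratio to 0 h at 6 h (x axis), 1 point per gene, with dashed lines at 1 and -1. The 94 genes above the upper line include both very high genes and genes far below 0 h, and 3 genes lie at or under the lower line.

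The 9 spore wall and sporulation genes past the threshold were DIT1, DIT2, SPS100, GAT3, GAT4, SPR6, SGA1, SHC1 and CTS2. Their median log2 ratios from 3 h on were 0.60, 1.76, 5.48, 6.09 and 7.59. GAT4, a relative of GAT3, went from 7.01 at 6 h to 8.31. SGA1 encodes the sporulation glucoamylase that breaks down stored glycogen. It stood at 1.09, 0.58, 0.60, 2.13, 6.80, 7.58 and 8.82, the last being the highest 8 h level of the 9.

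CTS2, a chitinase family gene, went from 7.42 to 8.46. SHC1 encodes an activator of the chitin synthase Chs3 that is specific to sporulation. Its log2 ratios were 2.19, 2.52, 3.11, 3.44, 2.50, 3.15 and 4.23, so a dip at 5 h preceded the gain. ECM23, which encodes another GATA-type zinc finger protein, stood at 7.96 at 6 h and was 1.04 higher at 8 h, the highest 8 h level among the 97 genes. The change of CTS2 was 0.99 and that of ECM23 0.98 with each column scaled to the same SD, just short of the threshold.

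Most other wall genes stayed within 2-fold from 6 h to 8 h, many of them at high levels. Of 10 measured genes of the dityrosine layer, 2 (DIT1 and DIT2) passed the threshold upward and 0 downward, with a list median of 0.215. DTR1, the bisformyl-dityrosine transporter gene, stood at 6.64 and 6.71, and LDS1 and LDS2, of the lipid droplets that accompany wall formation, at 8.00 and 7.65 and at 8.29 and 8.02. Of 17 beta-glucan and wall assembly genes 0 passed in either direction (median 0.16). At 1.5-fold 4 of them were higher and 2 lower, sizes reached by 6.95% and 2.24% of all genes. SPR1, a spore glucanase gene, and SPS1, a kinase gene, were nearest, each with a change of 0.90. FKS3, a gene of the glucan synthase family, went from 3.05 to 2.31. Of 11 chitin and chitosan genes 2 (SHC1 and CTS2) passed, where 1.66% of all genes passed upward. The chitosan gene CDA1 stood at 8.89 and 8.90, and CTS1 was low, at -2.61 and -2.26.

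The mid-late and late list held the largest share of genes past the threshold among the sporulation lists, with 5 of 12 and a median of 0.555. Of all genes 1.66% passed upward. The 5 were SPS100, GAT3, GAT4, SPR6 and SGA1, and TEP1 (6.47 and 6.32) and SPS18 (5.59 and 5.48) were among the 7 that did not pass. As a list, middle genes differed little from 6 h to 8 h. Of 22 measured members 0 passed, which is near the share of all genes. The median change was 0.06, with 13 higher and 9 lower, between -0.42 and 0.90. SPS4 had the largest change, 0.90, from 10.85 to 11.75, NDT80 stood at 7.10 and 6.98, and SPS2 at 11.33 and 11.70. The division genes had a median change of -0.05, with CDC5, the polo kinase gene, at 4.79 and 4.32 and the cyclin gene CLB1 at 4.16 and 4.11.

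One subunit gene of the anaphase-promoting complex, the ubiquitin ligase that drives the exit from each division, went further than the rest. CDC27 stood at 0.63, 0.51, 1.54, 1.19, 3.71, 4.55 and 5.64, a change of 1.09. The other 10 measured subunit genes had changes between -0.50 (DOC1) and 0.31 (APC5). AMA1, the meiotic activator of the complex, went from 6.81 to 7.54.

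Early recombination genes were lower at 8 h throughout their lists, though none by 2-fold. All 17 measured genes of axis, synapsis and crossover formation had a negative change, between -0.73 and -0.29 with a median of -0.48, where 51.1% of all genes were lower. HOP1, of the chromosome axis, went from 4.76 to 4.03, and ZIP1, of the synaptonemal complex, from 4.37 to 3.77. All 9 double-strand break genes were lower as well (median -0.36), with SPO11 at 4.33 and 3.87. Of 10 strand exchange genes 9 were lower (median -0.32), with the recombinase gene DMC1 at 5.38 and 4.68, and RAD55 was the exception with a change of 0.12. The entry regulators IME1 and IME2 went from 1.85 to 1.31 and from 6.61 to 6.10.

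The proteasome list had the lowest median of the 35 lists, -0.525. The proteasome is the protease that breaks down ubiquitin-tagged proteins. Of its 32 measured genes 31 were lower at 8 h (51.1% of all genes were), 0 by 2-fold. Of the 32, 10 were lower by at least 1.5-fold, a size reached downward by 2.24% of all genes. RPT4, an ATPase subunit gene, had the largest change, -0.87, from 0.42 to -0.45. RPN4, which encodes the transcription factor of the proteasome genes, went from -0.25 to -0.86. RPN11, the deubiquitinase of the lid, was the exception with 0.63 and 0.77.

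The largest role group among the gaining genes was that of the ribosome and its assembly, with 25 genes. These genes ran low at 1 h, partly recovered by 3 h, were low again at 5 h and gained to 8 h. Their median log2 ratios were -2.47, -1.42, -1.06, -1.30, -2.03, -1.84 and -0.68. All 25 were 1 or more below 0 h at 5 h, and 6 ended above 0 h. Among the hours from 1 h to 5 h the lowest value was at 1 h for 22 of them, against 32.8% of all genes, in a group put together with the values known.

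NOP56 and NOP58 encode the core proteins of the box C/D particles, which methylate ribosomal RNA. NOP56 stood at -3.55, -1.77, -1.35, -1.59, -2.32, -1.84 and -0.73. For NOP58 the log2 ratios were -2.59, -0.96, -0.61, -0.99, -1.77, -1.12 and -0.04. Both passed through 2 lows, at 1 h and 5 h, the first the deeper. NHP2, of the box H/ACA particles that make pseudouridine, went from -1.01 at 6 h to 0.34. EMG1, which encodes a methyltransferase of the small subunit, had the largest change of the group, 1.65, from -2.37 to -0.72.

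Other assembly factors past the threshold acted on both subunits. RPF2, MAK16 and NOG2, of the large subunit, had changes of 1.36, 1.11 and 1.03, and IMP3, of the small subunit processome, 1.08. RPC19, a subunit shared by RNA polymerases I and III, differed by 1.30. In translation itself, EFB1, of the elongation factor exchange complex, differed by 1.12, ZPR1, a chaperone of elongation factor 1A, by 1.09, and LIA1, the deoxyhypusine hydroxylase that modifies initiation factor 5A, by 1.30. STM1, which encodes a protein that holds idle ribosomes, went from -2.06 to -0.79.

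The ribosomal protein list was higher nearly throughout. Of 128 measured genes 125 were higher at 8 h (47.7% of all genes were), with a median change of 0.625, the largest of the 35 lists. Past the threshold were 12 upward (1.66% of all genes were) and 0 downward. At least 1.5-fold higher were 70, a size reached upward by 6.95% of all genes. RPL12A had the largest change, 1.38, with log2 ratios of -2.90, -1.54, -1.10, -1.24, -2.12, -2.06 and -0.68. RPS18A (1.25), RPL34A, RPS21B, RPS11A, RPS12, RPS22A and RPS8A were among the others past the threshold. RPL30 ended at 0.04 after -1.26 at 6 h, and RPS28B had the lowest change of the list (-0.19).

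Copies of the same ribosomal protein gene were often near each other, but unlike genes of the list were not compared in the same way. Among 52 measured pairs the median difference in change between copies was 0.17. Some pairs were further apart, such as RPS18A (1.25) and RPS18B (0.52). In 1 pair, RPL2A (1.27) and RPL2B (1.05), both copies passed the threshold, and in 7 pairs 1 copy did. Such near-identical copies can share signal on an array, so their separate values are uncertain. The ribosome biogenesis list had 3 of 23 past the threshold upward (NHP2, NOP56 and NOP58), where 1.66% of all genes passed. Of the 23, 21 were higher (47.7% of all genes were), and the list median was 0.54. RPA190 and RPA135, the large subunits of RNA polymerase I, differed from it with changes of -0.08 and -0.05.

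**Figure D3:**
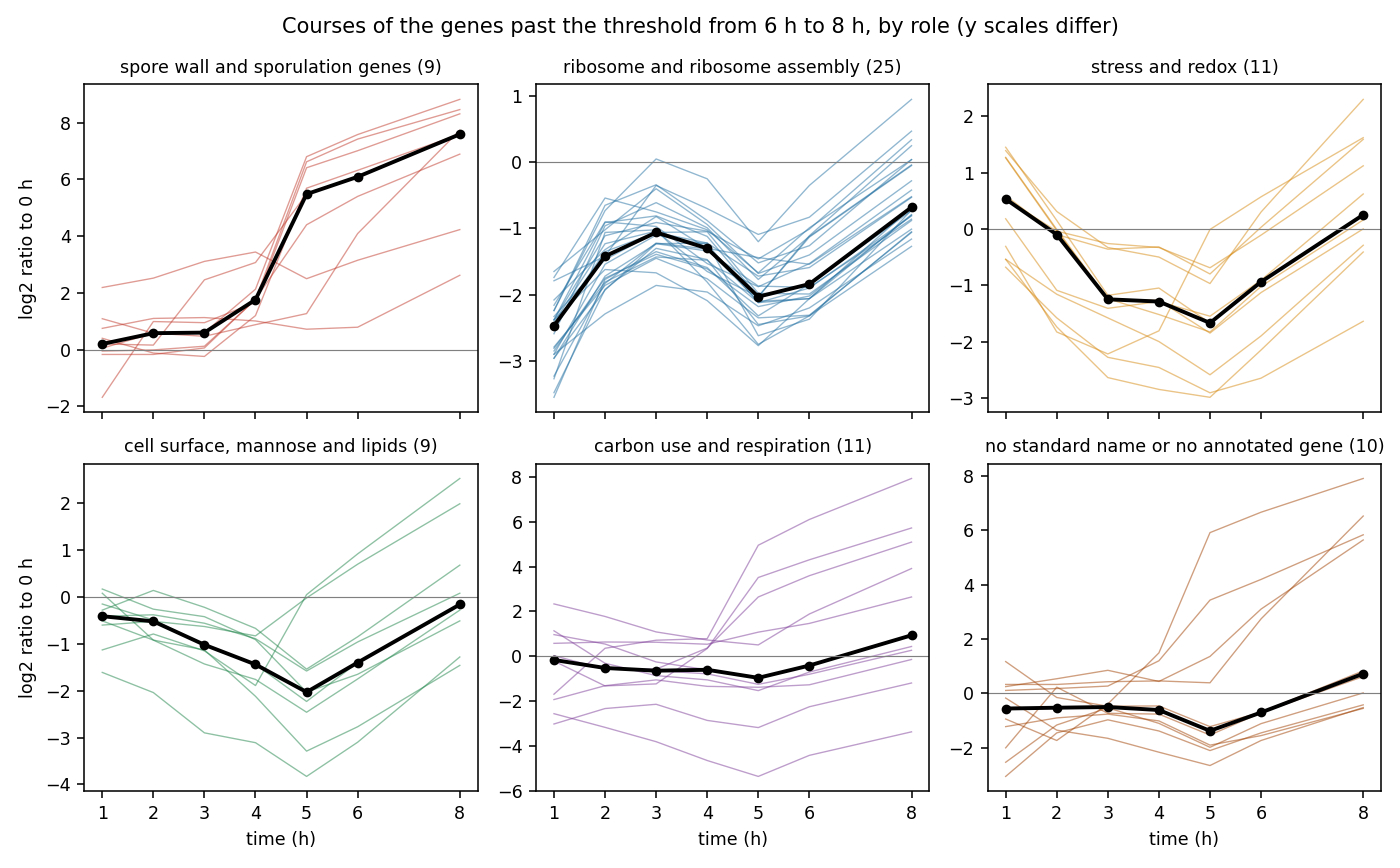
Log2 ratio to 0 h (y axis, scales differ between panels) by hour (x axis) for the genes past the threshold in the larger role groups, 1 thin line per gene and the group median in black. The ribosome group has lows at 1 h and 5 h (medians -2.47 and -2.03), the stress group its low at 5 h (-1.67), and the spore wall group climbs from 4 h on.

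Stress and redox genes had another median course, from above 0 h at 1 h to a low at 5 h and back. The 11 genes had median log2 ratios of 0.53, -0.10, -1.25, -1.29, -1.67, -0.94 and 0.25. At 1 h DDR2 (1.39), HSP32 (1.45), HSP33 (1.27) and SNO4 (1.26) were more than 2-fold above 0 h. Among the hours from 1 h to 5 h the lowest value was at 5 h in 10 of the 11, with CTT1 the exception, and a low at 5 h was common in the whole table (35.5% of all genes). In all, 7 of the 11 ended above 0 h.

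DDR2, a stress gene first found by its response to DNA damage, stood at 1.39, 0.31, -0.33, -0.50, -0.97, 0.30 and 2.30. Its change of 2.00 was the largest of the group. SIP18 encodes a hydrophilin that protects drying cells, with values of -0.54, -1.74, -2.64, -2.85, -2.99, -2.15 and -0.41. It came back close to its 1 h level without passing 0 h. STF2, another gene of desiccation tolerance, went from -2.65 to -1.64. RTN2, a reticulon gene of the endoplasmic reticulum that stands in the stress list, went from -0.91 to 0.62.

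Redox genes past the threshold were AHP1, a peroxiredoxin gene (-1.90 to -0.29), GTT1, a glutathione transferase gene (0.03 to 1.59), and CTT1, the cytosolic catalase T gene. CTT1 stood at -0.31, -1.83, -2.22, -1.81, -0.01, 0.57 and 1.62, with its low at 3 h and not at 5 h. Related genes were nearly level, with changes of 0.13 for the peroxisomal catalase gene CTA1, 0.22 for TSA1 and -0.21 for GTT2. The repressor gene XBP1, known for its response to stress and starvation, went from -0.11 to 1.12.

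HSP32, HSP33 and SNO4 belong to a family of near-identical genes and had almost the same values. HSP32 stood at 1.45, 0.15, -1.18, -1.05, -1.67, -0.94 and 0.25, and the changes of the 3 genes were 1.19, 1.18 and 1.13. Their separate values are uncertain for that reason. The more distant HSP31 ran otherwise, from 0.11 at 1 h to 1.50 at 6 h and 2.42 at 8 h. Of 24 measured genes of the desiccation and stress list 7 passed upward (1.66% of all genes did) and 0 downward. Of the 24, 22 were higher (47.7% of all genes were), and the median change was 0.495.

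Heat shock chaperone genes did not share this course. Of 19 measured, 0 passed the threshold, 14 were lower at 8 h (51.1% of all genes were), and the median was -0.33. HSC82 and HSP82, the HSP90 genes, went from 1.33 to 0.72 and from 1.38 to 0.83. HSP12, a small membrane-protecting heat shock gene, had the highest change, 0.25. Trehalose and glycogen genes had a median of -0.09, and 0 of 16 passed. Of all genes 1.66% passed upward and 0.0529% downward, so 0 is near that share in both lists.

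Among 9 genes of the cell surface, mannose and lipids, 7 were lowest at 5 h among the hours from 1 h to 5 h, beside 35.5% of all genes. TIP1, a cell wall mannoprotein gene, stood at -1.61, -2.04, -2.90, -3.11, -3.83, -3.10 and -1.28, a change of 1.82 that left it below 0 h. CWP2, another mannoprotein gene, ended above 0 h, with -0.02, 0.70 and 1.99 over the last 3 columns. PSA1 makes GDP-mannose, the donor for mannan, and stood at -1.13, -0.79, -1.15, -1.89, 0.05, 0.92 and 2.53. VAN1, of the mannan polymerase, went from -1.40 to -0.16. Other mannose genes were nearer to level, with changes of 0.43 for SEC53 and 0.10 for PMI40 upstream of PSA1 and 0.00 for MNN9, a partner of VAN1.

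In the list of vegetative mannoproteins and the PAU family, 2 of 20 passed (TIP1 and CWP2), against 1.66% of all genes. Of the 20, 18 were higher (47.7% of all genes were), and the median was 0.45. CCW12 went from 2.54 to 3.25 and CWP1 from 2.12 to 2.78. Membrane genes past the threshold were PMA2, a proton pump gene, and PMP1, which encodes a small proteolipid of the pump, with changes of 1.04 and 1.14. The main pump gene PMA1 differed by 0.24. ERG3, a sterol desaturase gene, went from -2.77 to -1.46, apart from an ergosterol list whose median was -0.26. PLB2, a phospholipase gene, differed by 1.53, and FMP45, which encodes a membrane protein, by 1.47.

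The 11 genes of carbon use and respiration are set beside relatives that were picked with their values known. EMI2, a relative of the glucokinase gene GLK1, stood at -0.22, -1.33, -1.24, 0.34, 3.51, 4.30 and 5.72. GLK1, at -2.26 and -1.49, differed by 0.77 and stayed far below 0 h. SHH3 and SHH4, relatives of the succinate dehydrogenase genes SDH3 and SDH4, differed by 1.18 and 1.35, whereas SDH3 and SDH4 differed by -0.43 and -0.15.

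The pentose phosphate pathway makes ribose and reducing power. SOL1, of the 6-phosphogluconolactonase-like family, went from 3.59 to 5.09, while SOL3 and SOL4 differed by 0.34 and 0.02. TKL2, the minor transketolase gene, differed by 1.14 and TKL1, the major one, by 0.10. RKI1, the ribose-5-phosphate isomerase gene, differed by 1.06, from -2.26 to -1.20, and ZWF1, the first enzyme gene of the pathway, by 0.08.

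HXT10 was the only one of 18 measured hexose transporter and sensor genes past the threshold. It stood at -1.70, 0.35, 0.71, 0.78, 4.95, 6.10 and 7.93, and HXT14, the other very high member, went from 8.74 to 9.33 without passing. ALD6, the cytosolic acetaldehyde dehydrogenase gene, was the lowest of the 97 genes at 8 h, at -3.38 after -4.43. ADR1 and NRG1 encode regulators of carbon use, an activator of nonfermentative genes and a repressor under glucose, and differed by 1.13 and 1.07. PCK1, a gluconeogenic gene, lay just outside with 0.93, while FBP1 and the glycolytic gene ENO2 stayed low with changes of -0.05 and 0.27. Genes of the TCA cycle (14 of 15 lower, median -0.23) and of oxidative phosphorylation (19 of 27 lower, median -0.12) had 0 past the threshold. Of all genes 51.1% were lower, 1.66% passed upward and 0.0529% passed downward.

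The nutrient genes past the threshold were GLN1, BAP2, PHO90, ARO2 and SNZ3. GLN1, which makes glutamine, stood at -0.41, -0.26, -0.72, -1.18, 0.45, 1.21 and 2.42. In its nitrogen catabolite list of 22, 17 were lower (51.1% of all genes were), and the median was -0.15. BAP2, a branched-chain amino acid permease gene, went from -2.03 to -0.58, and it lies next to TIP1. PHO90, a low-affinity phosphate transporter gene, differed by 1.06 and ARO2, the chorismate synthase gene, by 1.14.

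Other genes gained without relatives among the 97. MRPS17, of the mitochondrial ribosome, stood at -1.23, -1.53, -0.96, -0.34, 2.62, 3.16 and 4.19, and 6 other genes of the small mitochondrial subunit had changes between -0.18 and 0.56. The kinase gene PRR2 went from 2.30 to 3.37 and TDA1, another kinase gene, from -0.08 to 1.00. GDS1 went from 3.17 to 4.24, ICS2 from 1.18 to 2.63, DIA3 from 1.98 to 3.24, SDD1 from 2.96 to 4.05 and MLO50 from 6.46 to 7.69. RTC3 (-3.15 to -1.76), NRP1 (-0.66 to 0.53), FAT3 (-0.89 to 0.49) and LPX2 (1.03 to 2.03) completed the named genes.

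The uncharacterised YGL230C, at 6.66 and 7.90, followed the course of the spore wall genes. Of the 97, 7 rows (7.22%) matched no annotated gene, a share near the 7.38% of all genes. YBR116C, YLR198C and YOR309C are numbered next to TKL2, NOP56 and NOP58 and had changes close to theirs, 1.52, 1.03 and 1.13. YGR160W (1.33) and YDR413C (1.00) are numbered next to NSR1 and RRP17, ribosome assembly genes with changes of 0.83 and 0.80. The last of the 7 rows was YMR173W-A (1.21), whose number is that of the stress gene DDR48 (0.83). Whether such frames overlap the named gene was not tested.

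Only 3 genes were lower by 2-fold, and each has another role. ALG3, which adds mannose to the lipid-linked sugar of N-glycosylation, stood at 0.66, 0.49, 0.62, 0.94, 0.33, -0.11 and -1.21, a change of -1.10. CTR3, a high-affinity copper transporter gene, stood at -0.48, 0.13, 0.83, 0.43, -1.70, -2.21 and -3.27. Its change was -1.06 after a highest value at 3 h, while CTR1 and CTR2 differed by 0.32 and 0.39.

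THI5, of the thiamine precursor family, stood at -0.43, -0.55, -0.77, -0.27, -0.89, -1.39 and -2.39 and sat on the threshold with a change of exactly -1. Its near-identical relatives THI11, THI12 and THI13 differed by -0.48, -0.58 and -0.43, so the separate value of THI5 is uncertain. The gene numbered next to it, the vitamin B6 gene SNZ3, went the opposite way, from -1.30 to -0.14. Its near copy SNZ2 differed by -0.34, so the separate value of SNZ3 is uncertain as well.

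The threshold of 1 cut through a continuous range on the upper side. LPX2 (1.00), STF2 (1.01) and RPL21B (1.02) lay just inside it and RXT3, RPP0 and SSO2 (0.99 each) just outside. In all, 45 genes were higher by 0.90 to 0.99, several of them ribosomal protein genes. On the lower side ALG3, CTR3 and THI5 lay inside, and PDH1 (-0.92), the fatty acid desaturase gene OLE1 (-0.89) and RPT4 (-0.87) were next. Of the 94 gains, 5 were 2 or more and 13 were at least 3-fold.

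**Figure D4:**
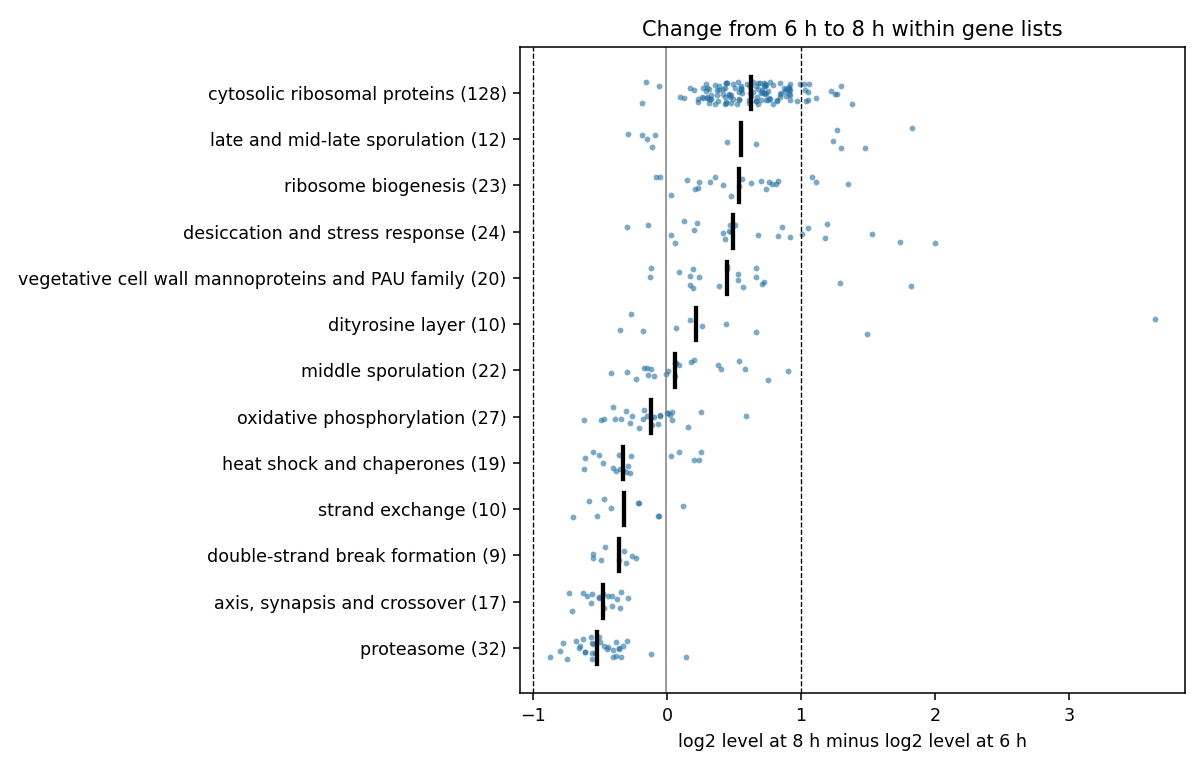
Change in log2 level from 6 h to 8 h (x axis) for each measured gene of selected lists, 1 point per gene, with the list median as a black bar, the median of all genes as a grey line and dashed lines at 1 and -1. The ribosomal protein list is centred at 0.625 and the proteasome list at -0.525, and all genes of the axis and break formation lists lie below 0.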

How the data were processed

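Poly(A)+ RNA of each time point (Cy5) was hybridised with a common meiotic mix (Cy3) on 2-colour arrays, per the labels. The authors deposited log2 ratios of each time point to 0 h, per the series design. The direction follows that text. How the cultures were combined, background correction, array normalization, filters and centring were not given in the sources used here. Medians by column, in time order, were 0.01, -0.01, -0.01, 0.00, -0.02, -0.03 and -0.04.

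The table has 6141 rows, of which 475 had no value. Differences were rounded to the 2 decimals of the deposited log2 values before the threshold was applied. Rows were named from the RefSeq table of assembly R64, which 5667 matched, 12 of them through an older systematic name. With 1 column per time point no test was run, and precision is limited by the number of arrays. Calculations used Python 3.11.15 and pandas 2.3.3, and the threshold rule was tested on simulated data.

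The members and the 35 lists were chosen with earlier results of these data known. Named genes were the 20 highest and the 20 lowest with a standard name past the threshold, all list members past it, the 3 nearest on each side, 13 landmarks and, for a list that is described, at most 2 members at either end. Others, such as relatives and neighbours of members, were chosen after their values were seen. Alternatives changed column scale, column centre, starting column, threshold and rows. No sequences were used here.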

Additional observations from a re-analysis of the deposited data

How the results depend on the processing

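No paired analysis was possible because each time point has 1 column and no replicate. Counts with each column scaled to the same SD or centred on its median were 96 and 100, of which 93 and 96 were among the 97, and 90 with protein-coding genes alone. Taken against the mean of 5 h and 6 h, 176 genes differed by 1 or more (171 higher, 5 lower), and taken against 5 h, 290 did (267 higher, 23 lower). Each of these held 95 of the 97, but both reuse the 8 h column on which the genes were chosen. At 1.5-fold 521 genes differed (394 higher, 127 lower) and at 3-fold 13 did (13 higher, 0 lower), from the thresholds alone. Lists with a median of 0.5 or more either way numbered 4, and they numbered 6 with scaled columns, 5 with centred columns, 6 against the mean of 5 h and 6 h and 8 against 5 h. No sign of a change among the 97 turned under the 4 other columns or scalings. All 4 reuse the 8 h column, and the columns were already alike in centre and width. Nothing about robustness is therefore read from this. THI5 had -0.99 under scaling and under centring, LPX2 0.99 under scaling, and SNZ3 0.82 and RPL21B 0.92 against 5 h. The causes were not tested. Signal over background was not used here, so the level at which a value becomes unreliable is unknown.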

Other observations

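Vacuolar protease and autophagy genes were mixed in direction. ATG8, which encodes the ubiquitin-like protein of autophagosome membranes, went from 3.37 to 4.24, and PEP4, the vacuolar protease that activates the others, from 1.60 to 2.25. PRB1, vacuolar protease B, went from 0.19 to -0.18 and ATG17, a scaffold of autophagy, from -0.51 to -1.12. Of the 17 measured genes of this list 9 were higher and 8 lower, with a median change of 0.07.

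Phosphate genes were mostly higher by small amounts, and ergosterol genes were mixed in direction. Of 15 phosphate response genes 12 were higher (80.0%, against 47.7% of all genes), with a median of 0.14. PHO11 and PHO12, near-identical acid phosphatase genes, had changes of 0.79 and 0.70. Of 22 ergosterol genes 13 were lower (59.1%, near the 51.1% of all genes), with HMG2 (-0.73) and ERG2 (-0.69) the lowest. At 1.5-fold 4 of the 22 were higher and 3 lower. ERG3 alone passed the threshold upward, and ERG20 (0.79) was next.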
